A study of Mus musculus with 6 samples.

Results

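Enzymes that place fatty acids into phospholipids were examined in B16F10 cells, an established line of mouse melanoma cells labelled wild type. The 10 genes are the long-chain acyl-CoA synthetases Acsl1, Acsl3, Acsl4 and Acsl5, the lysophosphatidylcholine acyltransferases Lpcat1, Lpcat2, Lpcat3 and Lpcat4, and the membrane-bound O-acyltransferases Mboat1 and Mboat2. They were chosen by symbol, and all 10 were found among the 27179 genes of the expression table. Cells received 0.01% ozonated olive oil (OZO, the oil after treatment with ozone) in 3 samples or 0.01% olive oil (OLO) in 3 samples for 6 h, and their RNA was sequenced. The value used for each gene is the authors' average over all 6 libraries, in log2 CPM, where CPM is a read count scaled to a common library size. It pools both oils, and neither the groups nor single libraries were analysed on their own here. The levels below therefore describe the cells of the experiment as a whole, with no SD and no test, and say nothing on a difference between OZO and OLO.

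Before a fatty acid can enter a phospholipid it is joined to coenzyme A, which is the work of the acyl-CoA synthetases. Lysophospholipid acyltransferases then move the acyl chain onto a phospholipid that has lost a chain to a phospholipase, a cycle of removal and replacement that sets which fatty acids a membrane holds. ACSL4 prefers polyunsaturated chains such as arachidonic acid, and LPCAT3 inserts such chains into phosphatidylcholine and phosphatidylethanolamine. Phospholipids with polyunsaturated chains are the main substrate of the lipid peroxidation that drives ferroptosis. ACSL3 is known for activating monounsaturated fatty acids such as oleic acid, the main fatty acid of olive oil.

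Across the table, 21154 genes had at least 1 read and 6025 had none. A gene without reads has a fixed value set by the 0.5 reads that voom adds to each count, which puts the typical scaled library (geometric mean over the 6) at 19641946 reads. At this depth 1 CPM equals 19.6 reads in a library. All 7 melanoma cell markers were present, from 39.0 CPM per kilobase of the longest transcript for Sox10 to 2144 for Tyrp1. With coding transcripts Dct was the highest of them, at 3202 CPM per kilobase. Of 8 markers of keratinocytes, leukocytes, fibroblasts and endothelium, only Col1a1 (1.70 CPM) and Pecam1 (1.21 CPM) reached 1 CPM, and Krt5 had no read.

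Each of the 10 genes was above 1 CPM, as were 11878 of the 27179 genes of the table. Read support differed widely, with a geometric mean (of reads plus 0.5) of 3063 reads per library for Acsl3 and 37.7 for Lpcat4. Because longer transcripts collect more reads, levels were divided by the length of the longest annotated transcript, which ran from 2275 to 6792 bases, and other lengths are named where they are used. On this scale the genes spanned 46.7-fold. Acsl3 was highest, followed by Lpcat3, Acsl5, Lpcat2, Acsl4, Acsl1, Mboat1, Mboat2 and Lpcat1, and Lpcat4 was lowest. Among the 19227 genes with reads and a known length, the 10 genes had percentiles from 44.5 to 91.3, with a median of 72.7.

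**Figure D1:**
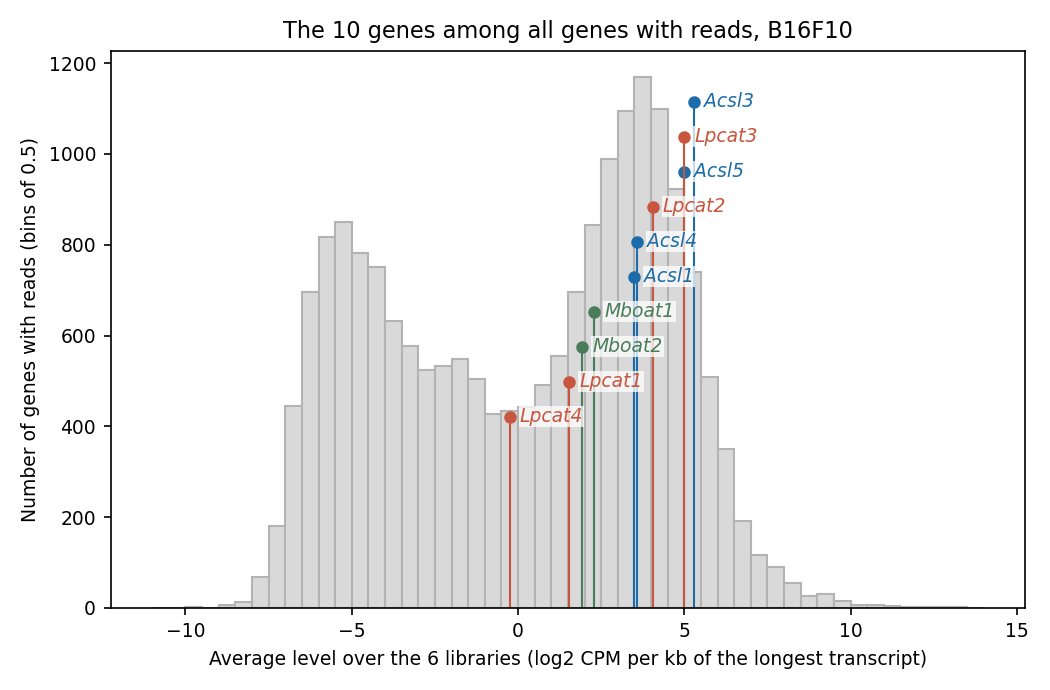
Grey bars count the 19227 genes with reads and a known length by average level over the 6 libraries (log2 CPM per kilobase of the longest transcript, horizontal axis), and coloured stems mark the 10 genes (blue Acsl, red Lpcat, green Mboat). Stem height only separates the labels. Of the 10 genes, 9 lie above the median of these genes, and Acsl3 is farthest right. With the longest coding transcript as length, and ranked only among genes that have one, 8 were above the median.

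Acsl3 is on the plus strand of chromosome 1 (78657825 to 78707743, mm10 coordinates, as for all positions given), and its longest transcript has 16 exons. Its average was 7.28 log2 CPM, or 156 CPM and 39.5 CPM per kilobase, which placed it at the 91.3 percentile. Acsl5, which codes for a synthetase of mitochondria and endoplasmic reticulum best known from intestine, is on chromosome 19 (55251938 to 55297720, plus strand, 22 exons). It averaged 7.06 log2 CPM, or 31.5 CPM per kilobase. Acsl3 and Acsl5 thus had the highest RNA levels of the synthetase genes examined here, and protein was not measured in these data.

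Acsl4 is X-linked (142317993 to 142390535, minus strand, 16 exons) and had 5.97 log2 CPM, or 62.8 CPM and 11.9 CPM per kilobase. Per kilobase Acsl3 was 3.32-fold and Acsl5 2.65-fold above Acsl4, and with all exons of each gene together as the length these ratios were 3.08 and 2.37. Counting error on either difference was at most 0.02 on the log2 scale (SE), far smaller than the differences, although the spread between cultures does not enter it. Acsl1, the main synthetase of heart, fat and liver, spans 46471037 to 46536051 of chromosome 8 on the plus strand. It averaged 6.00 log2 CPM, or 64.1 CPM, slightly more than Acsl4 before division by length. Its place depends on the transcript taken. The longest one, 5676 bases in 6 exons, is annotated as a retained intron and gives 11.3 CPM per kilobase, whereas the longest coding one, 3897 bases in 21 exons, gives 16.4. With all exons together (10483 bases) it had 6.11 CPM per kilobase, so Acsl1 stood either above or below Acsl4.

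Within the Acsl family, Acsl3 made up 41.9% of the summed level per kilobase (94.3 CPM per kilobase over 5 genes), Acsl5 33.4%, Acsl4 12.6% and Acsl1 12.0%. The remaining gene, Acsl6, known chiefly from brain, was nearly silent at 0.121%, with a geometric mean of 13.0 reads per library. Over the 3 lengths the share of Acsl4 stayed between 12.0% and 14.3% and that of Acsl3 between 39.7% and 44.1%, while Acsl1 ranged from 7.54% to 16.5%.

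Lpcat3, on chromosome 6 from 124663027 to 124704418 (plus strand), was the highest of the 6 acyltransferases among the 10 genes. It averaged 6.25 log2 CPM, or 76.2 CPM, which came to 32.1 CPM per kilobase and the 88.9 percentile. Per kilobase it was within counting error of Acsl5 when the longest transcript was used, with a difference of 0.03 on the log2 scale against an SE of 0.02. With coding transcripts Lpcat3 was 1.06-fold higher, and with all exons together Acsl5 was 1.18-fold higher. Acsl4, the synthetase that shares the preference of Lpcat3 for polyunsaturated chains, had 0.370 times the level of Lpcat3 per kilobase. The longest Lpcat3 transcript is annotated as a retained intron. With coding transcripts this ratio was 0.356, and with all exons together it was 0.498.

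Lpcat2, whose enzyme also makes platelet-activating factor in inflammatory cells, lies on chromosome 8 (92855339 to 92919279, plus strand, 14 exons). It averaged 5.54 log2 CPM, or 16.6 CPM per kilobase, and Lpcat3 was 1.94-fold above it. Lpcat1, which favours saturated chains and supplies the dipalmitoyl lipid of lung surfactant, is on chromosome 13 from 73467197 to 73516422 (plus strand, 14 exons). At 3.41 log2 CPM it had 2.90 CPM per kilobase, 11.1-fold below Lpcat3. The weakest of the 10 genes was Lpcat4, on chromosome 2 (112239468 to 112247111, plus strand, 14 exons), with 0.94 log2 CPM, 1.92 CPM and 0.845 CPM per kilobase. Lpcat3 exceeded it 38.0-fold. With all exons together, Lpcat3 was 1.70-fold above Lpcat2, 10.1-fold above Lpcat1 and 34.3-fold above Lpcat4. Of the summed Lpcat level per kilobase, Lpcat3 held 61.3%, Lpcat2 31.6%, Lpcat1 5.53% and Lpcat4 1.61%, and the order was the same with each of the 3 lengths.

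Mboat1 and Mboat2 encode acyltransferases with a preference for monounsaturated chains such as oleic acid. Mboat1 (chromosome 13, 30136489 to 30246717, plus strand, 13 exons) averaged 3.83 log2 CPM and 4.90 CPM per kilobase. More reads came from Mboat2 (chromosome 12, 24830879 to 24964397, plus strand, 12 exons), with 4.70 log2 CPM, but its transcript of 6792 bases is the longest of the 10, and per kilobase it had 3.82 CPM. Mboat2 was thus at 0.780 times the level of Mboat1 per kilobase, and at 0.697 times with all exons together. Both were low beside Lpcat3, which stood 6.56-fold above Mboat1 and 8.41-fold above Mboat2 (6.00-fold and 8.60-fold with all exons together). Mboat7, which attaches arachidonic acid to phosphatidylinositol and is not one of the 10 genes, had 3.92 CPM per kilobase of its longest transcript, a retained intron, 4.62 with the coding transcript and 1.60 with all exons together.

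**Figure D2:**
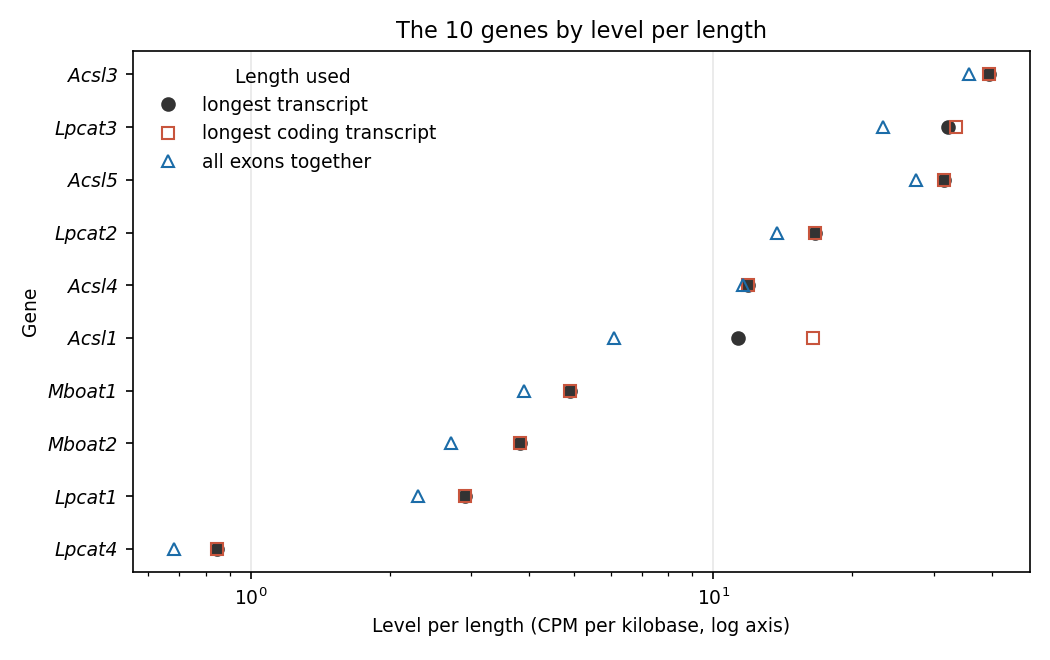
Level of each of the 10 genes (rows) in CPM per kilobase on a log axis, for 3 choices of gene length (black circles, longest transcript; red squares, longest coding transcript; blue triangles, all exons together). Acsl3 is highest and Lpcat4 lowest with each length, whereas Acsl1 moves from 6.11 to 16.4 CPM per kilobase.

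Neighbours in the order were compared with the counting error of their averages. With the longest transcript, Lpcat3 and Acsl5 differed by less than 2 SE, and Acsl4 and Acsl1 by 0.08 on the log2 scale (SE 0.02). With coding transcripts Lpcat2 and Acsl1 could not be separated, at a difference of 0.01 (SE 0.03). The counting error of Lpcat4 was the largest, 0.10 on the log2 scale, and its gap to Lpcat1 was 1.78. These errors cover counting only.

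Reads may be shared with other genes at 4 of the 10. Of the 50-base stretches of the longest coding transcript, 12.8% in Lpcat3 also occur, on either strand, in Emg1, which overlaps its end on the opposite strand. In Lpcat2 the share was 8.62%, with the antisense gene Gm45472, and in Acsl5 it was 5.53%, nearly all with the overlapping Zdhhc6. Acsl3 shared 4.05% with Utp14b, which starts within it on the same strand. None of the stretches was shared between any of the 10 genes, and none of the other 6 had a shared stretch in its coding transcript. The library kit was directional, so the reads carried their strand, but whether they were counted by strand is not given in the sources used here.

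The other genes of the pathway were measured in the same way. Of 14 other acyl-CoA synthetases, 8 reached 1 CPM, and the highest per kilobase was Acsf2, a mitochondrial synthetase, with 12.0 CPM per kilobase. Their median over the 13 with reads was 2.30 CPM per kilobase, against 11.6 for the 10 genes, and with all exons together these medians were 1.26 and 8.43. Among 12 other acyltransferases of glycerolipid synthesis and remodelling, 11 reached 1 CPM, with a median of 8.15 CPM per kilobase and the highest level in Gpat4 (25.3), an enzyme of the first step of glycerolipid synthesis. Of 9 genes for phospholipases that release acyl chains, counting the lysophospholipase genes Lypla1 and Lypla2, 7 reached 1 CPM. Their median over the 9 was 7.02 CPM per kilobase. Pla2g4a, the cytosolic phospholipase that frees arachidonic acid, was at the edge of detection, with 0.0367 CPM. All 10 acyl-CoA thioesterases and binding proteins reached 1 CPM, and their median, 19.7 CPM per kilobase (14.2 with all exons together), was above that of the 10 genes. The highest was Dbi, the main acyl-CoA binding protein, at 549 CPM per kilobase of its longest transcript, a retained intron, 637 with the coding transcript and 255 with all exons together. For all 19227 genes with reads and a length the median was 1.87 CPM per kilobase.

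**Figure D3:**
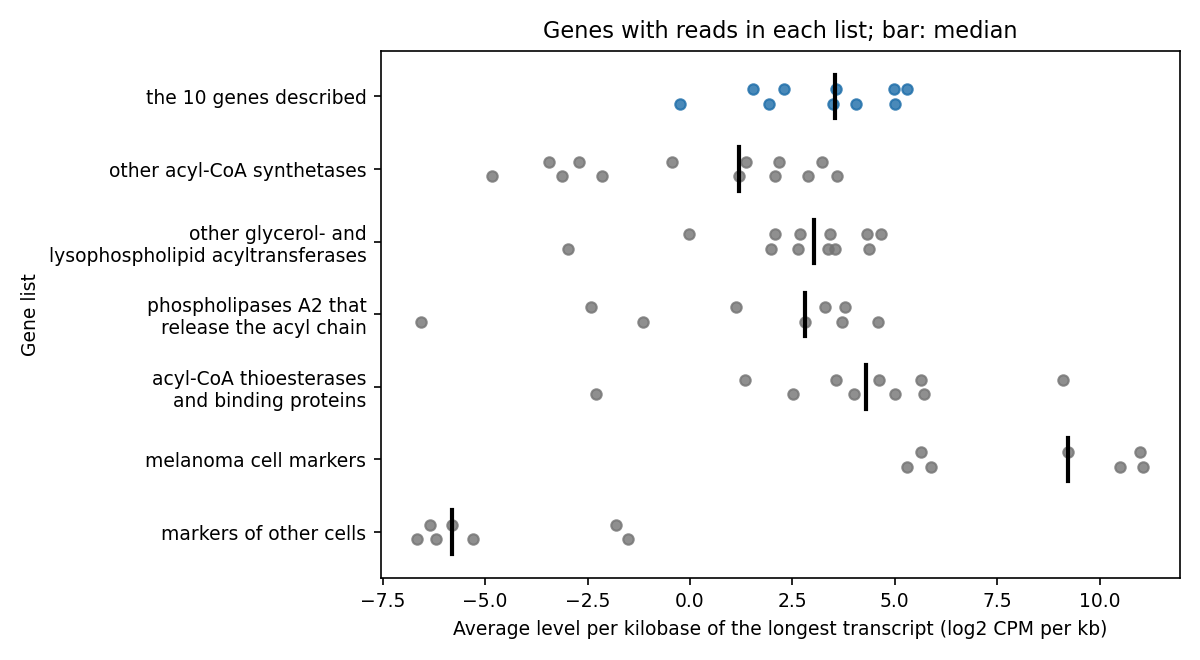
Each point is a gene with reads, placed by its average level (log2 CPM per kilobase of the longest transcript), with 1 row per gene list and a black bar at the list's median. The 10 genes (blue) have a median of 3.53, the melanoma markers lie to the right of all of them except Acsl3, which passes Sox10 slightly, and the markers of other cells lie to the left.

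Promoters from the RefSeq table (build GRCm38.p6, 250 bases before to 50 after the start) were found for all 10 genes, with 11 windows since Acsl1 has 2. CpG dinucleotides numbered from 4 to 45 per window, with a median of 30 against 7 over all 32851 windows, and 10 of the 11 windows were above that median. The 3 genes with the highest level per kilobase had 33 (Acsl3), 36 (Lpcat3) and 9 CpG (Acsl5), and the lowest gene, Lpcat4, had 45. The bases before the start are printed for the highest gene, for Acsl5, which had the fewest CpG of the genes with 1 window, and for the lowest gene. All 3 are on the plus strand, at chr1:78657575-78657824, chr19:55253119-55253368 and chr2:112239591-112239840. The printed bases of Acsl5 and Lpcat4 lie inside the gene spans given above, since the RefSeq start used is downstream of the GENCODE gene start. They are therefore not upstream of the whole gene. Capitals mark a match to the core of the antioxidant response element, the site of NRF2.
Acsl3: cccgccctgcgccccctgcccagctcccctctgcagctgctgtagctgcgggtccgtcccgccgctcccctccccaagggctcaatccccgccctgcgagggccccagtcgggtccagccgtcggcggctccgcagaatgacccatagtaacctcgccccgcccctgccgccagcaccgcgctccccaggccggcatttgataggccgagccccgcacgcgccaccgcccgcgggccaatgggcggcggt
Acsl5: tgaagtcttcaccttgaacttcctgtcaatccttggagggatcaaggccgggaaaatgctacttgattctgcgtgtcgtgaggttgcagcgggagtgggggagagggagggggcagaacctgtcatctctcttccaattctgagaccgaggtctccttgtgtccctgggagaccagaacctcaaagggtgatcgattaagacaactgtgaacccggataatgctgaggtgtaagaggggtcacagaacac
Lpcat4: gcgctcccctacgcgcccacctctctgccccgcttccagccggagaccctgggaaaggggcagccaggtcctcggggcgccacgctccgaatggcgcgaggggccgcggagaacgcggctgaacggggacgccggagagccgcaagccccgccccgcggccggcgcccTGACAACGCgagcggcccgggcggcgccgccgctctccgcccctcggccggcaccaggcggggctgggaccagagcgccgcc
Searched on both strands, the element's core, TGACNNNGC, was found in the Lpcat4 window alone and in 12.4% of all windows. The E-box CACGTG, a site of MITF and related factors, was in none of the 11 windows and in 7.15% of all. A site of the sterol regulator SREBP, TCACNCCAC, was in 1 window, the downstream start of Acsl1, and in 1.24% of all. The motifs do not overlap each other in these windows. A match is a match of letters only.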

How the data were processed

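B16F10 RNA was sequenced from 3 OZO and 3 OLO samples. According to the methods and the submitters' processing notes, the authors aligned reads to mm10 with HISAT2 (2.1.0), counted them with featureCounts (2.1.1) and fitted limma-voom (3.58.1). The deposited table gives, per gene, the average log2 CPM over all libraries, which is the value used here. Its 5 other numeric columns hold the authors' own comparison of OZO with OLO (fold change, moderated statistic, p-values unadjusted and adjusted, and log odds) and were not used. Libraries were made with a directional kit. Library scaling, filters and the strand setting of the counting are not given in the sources used here. Single libraries were not analysed on their own, and the depth of each library is unknown.

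The lowest value, shared by 6025 genes, was taken as that of a gene without reads, and the next step above it differed from that of 1 read in 1 of 6 libraries by 4.87e-10. Lengths, exons and positions were taken from GENCODE M21 (GRCm38), which gave a length for 23882 of the 24126 Ensembl identifiers in the table. Levels were divided by the longest transcript. Counting errors assume Poisson counts, were derived from the geometric mean of reads over 6 libraries, and cover counting only. The calculation was tested on simulated data. The genes, lists and motifs were chosen with earlier results of these data known. All 10 genes are named, with genes of other lists where a value turns on them. Python 3.11.15, numpy 2.4.6, pandas 2.3.3 and matplotlib 3.10.9 were used.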

Additional observations from a re-analysis of the deposited data

How the results depend on the processing

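No paired analysis was possible because each gene has 1 average over all libraries here, with no value per replicate. For the same reason the planned comparison of OZO with OLO, with its alternatives of another normalization, no filter, another pseudocount, a replicate block and leaving out each library, was not run. The median percentile of the 10 genes by average log2 CPM was 79.6 among genes with reads. It was 84.1 among all genes of the table, 63.4 among genes with a symbol and at least 1 CPM, and 72.7 per kilobase of the longest transcript. Lengths of all exons together and of the longest coding transcript, chosen after seeing the data, gave 72.7 and 72.6. The percentiles with coding transcripts were taken only among genes that have one. Acsl3 ranked highest and Lpcat4 lowest of the 10 under each of these settings. The limit to genes with a symbol and at least 1 CPM removes weak genes, and the percentiles were lower with it. With both conditions together, 6 of the 10 genes were above the median, in place of 9, and Lpcat4 had a percentile of 7.19. With the longest coding transcript, and the smaller set of genes that have one, 8 were above the median. Lpcat1 moved from a percentile of 53.6 to 49.5 although its own longest transcript is the coding one, so its length did not change. Depth limits Lpcat4 most.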
